A study of Mus musculus with 2 samples.

Results

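The genes described here are the mouse SR and hnRNP splicing factors: every protein-coding gene of the annotation whose symbol is Srsf followed by a number (11 genes) or starts with Hnrnp (20 genes). These 31 genes were taken from 43346 quantified genes, 21474 of them protein-coding, by a rule that reads the symbol alone but was set with earlier results of these data known, and they carried 212 quantified transcripts. The data are total RNA sequencing of facial prominences, the swellings around the primitive mouth that form the face, from embryos of mouse strain B6NCrl at embryonic day 11.5. Library 1 was made from 109 pooled embryos and library 2 from 88, of both sexes, each starting from 10 ng of RNA above 200 nt in size and given spike-in RNAs, and both belong to 1 group with no treatment, mutation or other age beside it. No test between groups was therefore possible, values are given for both libraries or as mean ± SD (n = 2), and the SD covers the spread between these pools only.

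SR proteins carry an RNA recognition motif and a region rich in arginine and serine repeats. They bind exonic enhancers and, in general, favour the use of nearby splice sites, whereas many hnRNP proteins bind silencers and oppose them. Genes of both families are known for controlling their own mRNA: they make alternative transcripts that hold a premature stop codon, in many cases in a so-called poison exon, or that keep an intron. Transcripts with a stop codon well upstream of the last exon junction are degraded by nonsense-mediated decay (NMD), and transcripts with a retained intron are often held in the nucleus. The annotation sorts transcripts into protein-coding, NMD, retained-intron and processed (no assigned reading frame) types, and the shares of these types are the main measure below.

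The libraries held 30849058 and 31600302 expected counts, the reads that the quantification assigned to all entries of a file. The 31 genes took 490922 of them in library 1 and 541451 in library 2, which is 1.71% and 1.85% of the counts on genes. The tissue label was checked on markers, with 1 TPM in each library as the limit. It was reached by 12 of 12 facial mesenchyme, 4 of 4 surface ectoderm and 4 of 4 neuronal genes. The same held for 4 of 4 erythroid, 3 of 3 endothelial and 3 of 3 muscle genes. RNA of markers of several cell types was thus present. This limit is low, since 58.5% of all protein-coding genes reached it, so the check says little about the tissue. In such bulk RNA, fewer cells of a type and less RNA per cell cannot be told apart. Summed levels of the neuronal markers were 373.17 TPM in library 1 and 307.37 TPM in library 2, and those of facial mesenchyme were 865.88 and 899.22 TPM. Surface ectoderm markers summed to 198.67 and 171.52 TPM, erythroid markers to 9405.83 and 8517.79, endothelial markers to 68.35 and 61.98 and muscle markers to 51.24 and 67.21. Sums of neuronal, surface ectoderm, erythroid and endothelial markers were thus higher in library 1, and those of facial mesenchyme and muscle in library 2. The higher facial mesenchyme sum rested on Barx1, at 56.65 and 104.89 TPM. In that list 8 of 12 genes were higher in library 2, while others were lower, such as Msx1 (277.82 and 248.29 TPM) and Alx1 (140.65 and 120.73 TPM). The part of these markers in any difference between the libraries was not tested.

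All 31 genes were detected, which means at least 1 TPM (a transcript level corrected for length and library size) in both libraries, against 58.5% of all protein-coding genes. Their median level was 257.73 TPM, beside 17.98 TPM over detected protein-coding genes. Levels spanned a wide range, from 4.53 ± 0.127 TPM for Hnrnpul2 to 2074.03 ± 68.3 TPM for Hnrnpk. By mean level, 23 of the 31 genes lay at or above the 95th percentile of protein-coding genes. In both libraries 24 of the 31 reached 100 TPM and 20 reached 200 TPM. The share of all protein-coding genes at these 2 levels was not counted. Along the order by mean level, 11 of the 30 neighbouring pairs had overlapping ranges over the 2 libraries, so their order is not resolved.

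**Figure D1:**
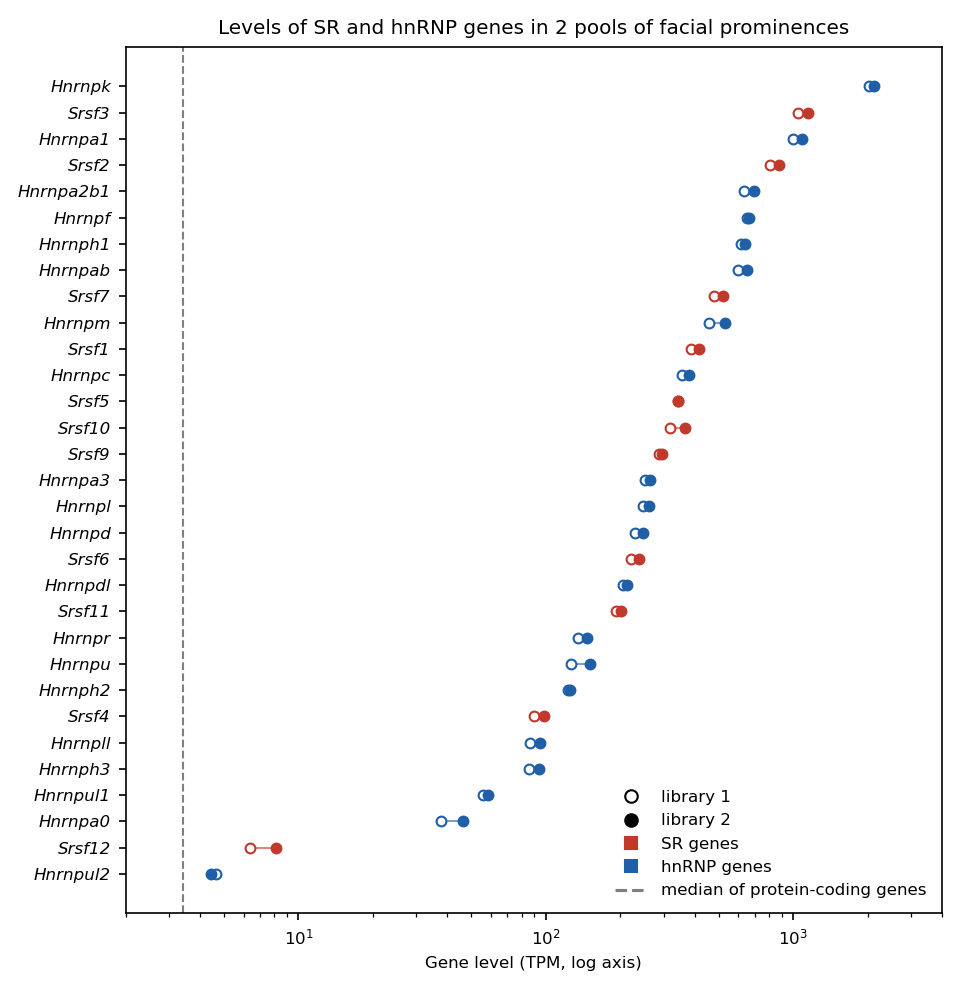
Gene level in TPM on a log axis (x) for each of the 31 genes (y), with an open point for library 1 and a filled point for library 2, and the median of protein-coding genes (3.415 TPM) as a dashed line. Every gene lies to the right of the dashed line, and the points of a gene lie close together compared with the range from Hnrnpul2 to Hnrnpk.

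Among the SR genes with a single RNA recognition motif, Srsf3, which encodes the smallest SR protein and also serves mRNA export, was the highest at 1042.66 TPM in library 1 and 1153.08 TPM in library 2. Srsf2, whose protein binds exonic enhancers and marks nuclear speckles, followed at 805.96 and 875.02 TPM. Srsf7, which adds a zinc knuckle to the motif, was measured at 478.14 and 519.05 TPM. These genes did not overlap one another across the libraries. Srsf10, whose protein represses splicing when dephosphorylated, reached 317.43 and 367.19 TPM, and Srsf11, which encodes a more distant SR-type protein, 192.58 and 201.02 TPM. Srsf12, a close relative of Srsf10, was the only SR gene under 10 TPM, with 6.37 and 8.10 TPM.

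Of the SR genes with a pair of RNA recognition motifs, Srsf1, the prototype of the family, was measured at 387.29 and 416.08 TPM. Srsf5 stood at 343.84 and 343.35 TPM, the smallest relative spread of the 31 genes. Srsf9, which has a short arginine-serine region, gave 288.21 and 295.85 TPM. These 3 genes were separated from each other in both libraries. Srsf6 and Srsf4, which encode long arginine-serine regions, were lower, at 221.10 and 238.83 TPM for Srsf6 and at 89.83 and 98.63 TPM for Srsf4.

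The hnRNP A genes encode glycine-rich proteins that counter SR proteins at many exons. Hnrnpa1 was measured at 1002.13 and 1089.55 TPM, a range that overlapped that of Srsf3, and Hnrnpa2b1 at 632.55 and 693.00 TPM. Hnrnpa3 was lower, at 250.97 and 264.49 TPM, and the intronless Hnrnpa0 was the lowest of the 4, at 37.54 and 46.09 TPM. Of the related AB and D genes, whose proteins bind AU-rich and other single-stranded elements, Hnrnpab stood at 598.28 and 650.18 TPM, above both Hnrnpd at 230.05 and 247.73 TPM and Hnrnpdl at 205.24 and 212.21 TPM. Hnrnpc, whose protein binds uridine tracts of nascent RNA, was measured at 357.02 and 380.87 TPM.

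Genes of the F/H group, whose proteins bind runs of guanines, split into high and low members. Hnrnpf at 651.50 and 662.47 TPM and Hnrnph1 at 616.34 and 639.50 TPM lay near each other without overlap. Hnrnph2, on the X chromosome, was lower at 123.45 and 125.45 TPM, and Hnrnph3 lower still at 85.29 and 93.71 TPM. Hnrnpk, whose KH domains bind cytosine-rich RNA, exceeded every other member in both libraries, at 2025.76 and 2122.30 TPM. Hnrnpl, which binds CA repeats, stood at 246.72 and 261.57 TPM, above its paralog Hnrnpll, at 86.51 and 95.20 TPM.

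Hnrnpm, which binds GU-rich RNA, was measured at 456.22 and 532.34 TPM and Hnrnpr at 135.42 and 147.23 TPM. In the U group, named for a nuclear scaffold attachment protein, Hnrnpu gave 126.67 and 150.91 TPM. Its relatives were lower, with Hnrnpul1 at 55.66 and 58.26 TPM and Hnrnpul2 at 4.62 and 4.44 TPM. In TPM, Hnrnpul2 and Srsf5 were the only genes of the 31 with a lower value in library 2. Some of these genes share sequence with a gene on the other strand, and whether the libraries kept strand is unknown here: Hnrnpu overlaps Cox20 (80.48 and 90.79 TPM), Srsf2 overlaps Mettl23 (51.46 and 50.63 TPM) and Hnrnpk overlaps Rmi1 (19.95 and 21.77 TPM), so counts in the overlaps cannot be told apart. On the same strand, Hnrnpm overlaps March2 (24.83 and 22.66 TPM) over 1169 nt. The posterior SD of the gene count, a measure of doubt over reads that match several places, was at most 1.29% of the count (Hnrnpa3).

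The libraries differed in the same direction across the families. On expected counts scaled between libraries by TMM, 30 of the 31 genes (all but Hnrnpul2) were higher in library 2, against 49.2% of the 16671 genes with at least 20 counts. Among genes with a mean of 10 TPM or more, the ratio was above 1 in 29 of 29 members, against 55.1% of 8407 genes, and the interval for counting error lay above 1 in 28 of 29 members, against 29.8%. The median ratio of library 2 to library 1 was 1.107 over the members and 1.013 over genes at 10 TPM, with 0.889 and 1.146 as their 10th and 90th percentiles. No member reached 1.5-fold, as 11.6% of genes with 20 counts did, but that set includes genes with far fewer counts than any member. The ratio was highest for Srsf12, at 1.320 (95% interval 1.118 to 1.560), and lowest for Hnrnpul2, at 0.979 (0.866 to 1.107). With a single group, a difference between pools of embryos and one between library preparations cannot be told apart.

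**Figure D2:**
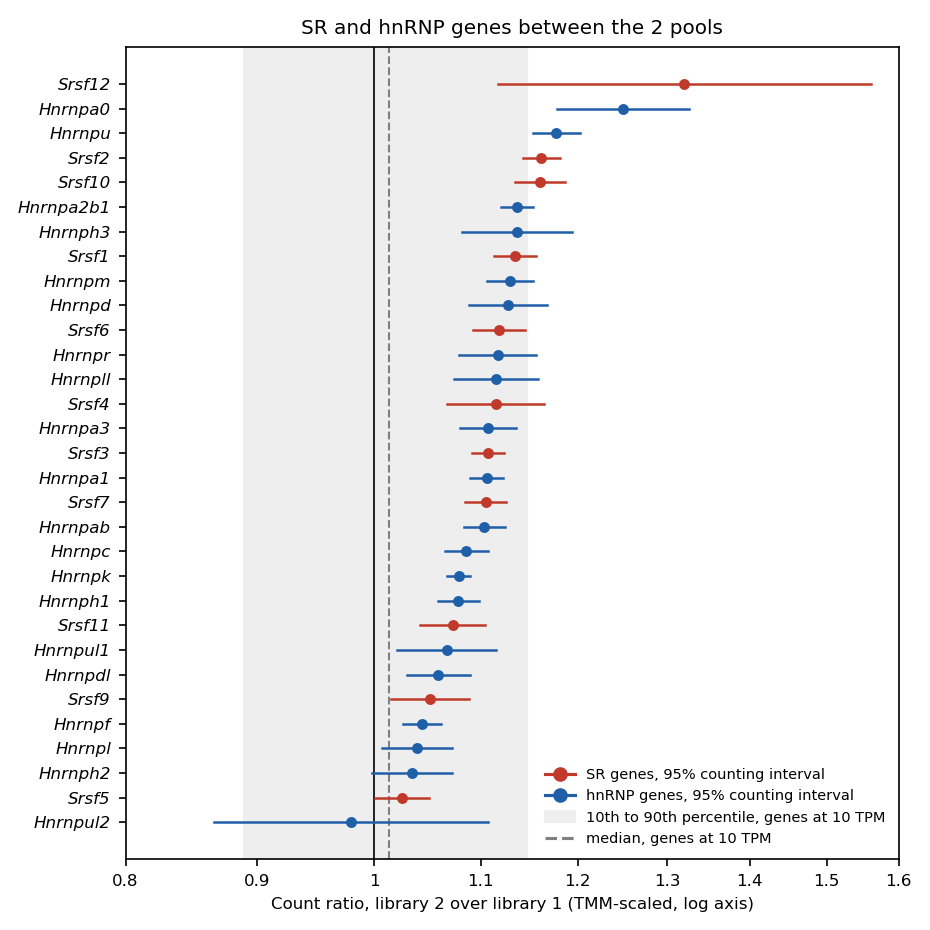
Ratio of TMM-scaled counts in library 2 to those in library 1 (x, log axis) for each gene (y), with the exact 95% interval for counting error as a bar, the 10th to 90th percentile of genes at 10 TPM as a grey band and their median as a dashed line. Points run from 0.979 for Hnrnpul2 to 1.320 for Srsf12, and 30 of 31 lie above 1.

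Transcript types divided the genes unevenly. Protein-coding transcripts held 77.9% of the summed TPM of the 31 genes, retained-intron transcripts 14.1%, processed transcripts 4.15% and NMD transcripts 3.74%. Over the 6103 protein-coding genes with at least 2 transcripts and 10 TPM, 27 of the members among them, the same shares were 84.9%, 6.24%, 4.68% and 2.99%. The retained-intron share of the sum rested on Srsf3 and Hnrnpk: it was 10.5% without Srsf3 and 4.88% without both genes, a step added after the values were seen. Per gene, the median retained-intron share was 0.53% over the 31 members, 0.880% over members at 10 TPM or more and 0.715% over the 6103 genes. The 31 include genes with a single transcript or under 10 TPM, which the 6103 leave out. The median share of coding transcripts within a gene was 90.09% over all 31 genes, 76.5% over the SR genes and 99.0% over the hnRNP genes, beside 94.3% over the 6103 genes. Over members at 10 TPM or more it was 88.5%. By expected counts it was 96.1% over all 31 genes, and the medians of the SR and hnRNP genes were not taken by counts. In 11 genes only coding transcripts were quantified (Srsf7, Srsf12, Hnrnpa0, Hnrnpa1, Hnrnpa2b1, Hnrnpab, Hnrnpc, Hnrnpf, Hnrnph2, Hnrnpul1 and Hnrnpul2), so their coding share of 100% follows from the annotation. Most of these 11 are hnRNP genes. Types come from GENCODE M21 while the authors quantified GENCODE M4 models. Of the 212 transcripts 192 had the same length in both, and 9 differed by more than 10%. The 192 transcripts held 71.3% and 70.6% of the members' TPM.

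**Figure D3:**
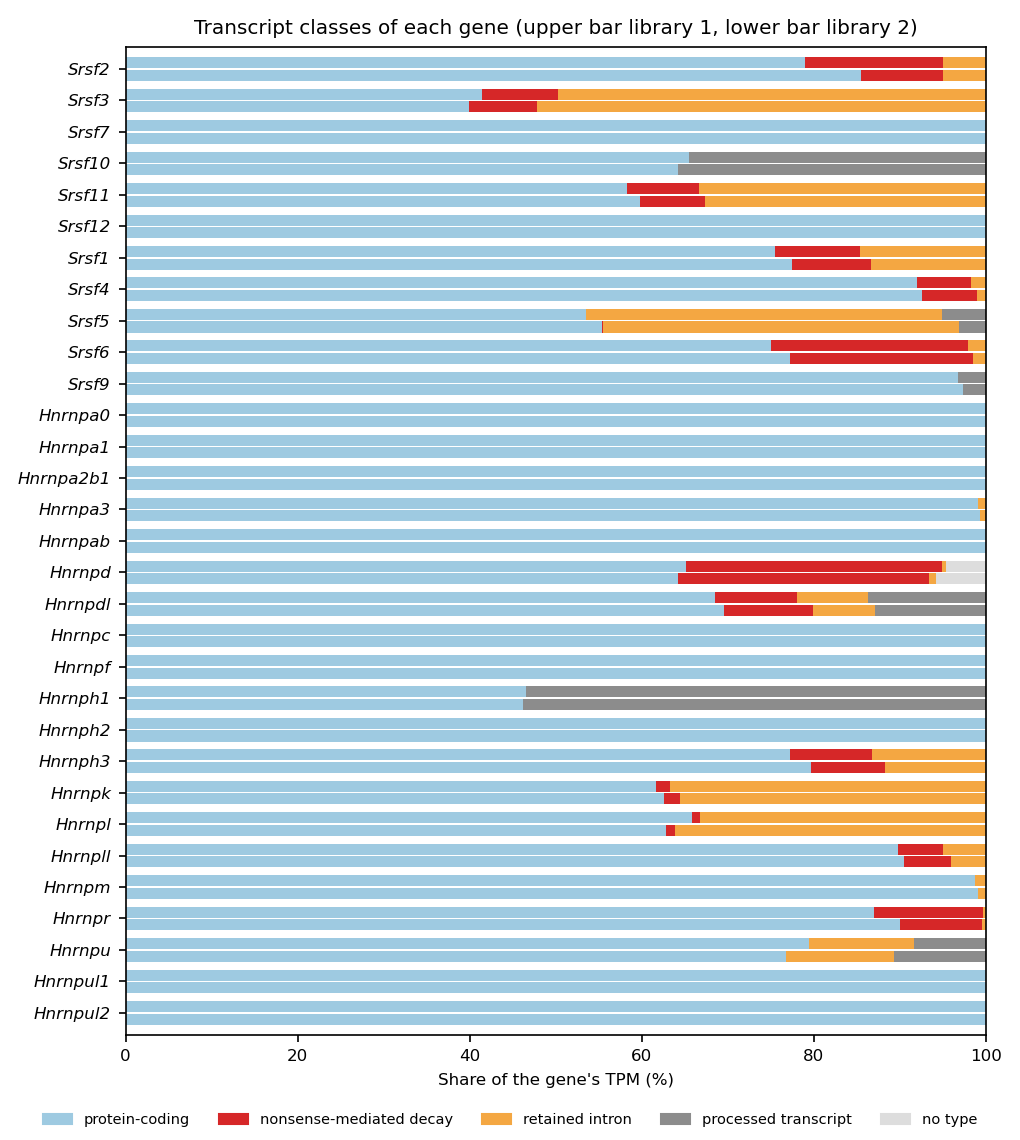
Share of each gene's TPM (x, percent) held by protein-coding, NMD, retained-intron, processed and untyped transcripts, with library 1 as the upper and library 2 as the lower bar of each gene. Orange retained-intron shares stand out for Srsf3, Srsf5, Srsf11, Hnrnpk and Hnrnpl, red NMD shares for Srsf6 and Hnrnpd, and grey processed shares for Srsf10 and Hnrnph1, and the bars of the 2 libraries are nearly alike for most genes.

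Retained-intron transcripts held at least 10% of the TPM in both libraries in 8 of 27 members, against 17.0% of the 6103 genes, and at least 1 such transcript is annotated for 17 of the 27, against 59.6%. In Srsf5 (ENSMUSG00000021134, chr12:80945504-80950507, + strand, assembly mm10) they held 41.3% in library 1 and 41.4% in library 2. In Hnrnpk (ENSMUSG00000021546, chr13:58391142-58403343, - strand) they held 36.7% and 35.5%, and in Hnrnpl (ENSMUSG00000015165, chr7:28808541-28822266, + strand) 33.2% and 36.2%. In each of these genes a single transcript with a single kept intron carried most of the share. Srsf5-212 was the dominant transcript of Srsf5 at 140.61 and 140.35 TPM, ahead of the coding Srsf5-201 at 99.77 and 91.56 TPM. Hnrnpk-217 reached 470.78 and 522.19 TPM beside 804.98 and 857.19 TPM for the dominant coding Hnrnpk-201. Hnrnpl-210, at 67.50 and 83.13 TPM, lay below the dominant coding Hnrnpl-202 at 77.25 and 87.49 TPM in each library.

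The introns kept in these 3 transcripts all lie between coding exons. Their splice sites are shown because they mark where spliced and intron-keeping transcripts part, with the first or last intron bases (GT and AG) in capitals, 3 exon bases on the outer side and the remaining intron bases in lower case. Srsf5-212 keeps intron 5 of 7, which is 1229 nt long (chr12:80947866-80949094) with a GC content of 36.3%. Hnrnpk-217 keeps intron 13 of 15, 78 nt long (chr13:58393775-58393852) with a GC content of 24.4%, and Hnrnpl-210 keeps intron 11 of 12, 118 nt long (chr7:28821274-28821391) with a GC content of 59.3%. The kept introns thus differ widely in length and base content, and only that of Hnrnpk has a length divisible by 3. Over all members, 17 of 47 retained-intron transcripts of unchanged length hold a whole intron of the coding transcript, and all 17 distinct introns start with GT and end with AG.
Srsf5 intron 5 donor: cagGTttgttgaaatacagt
Srsf5 intron 5 acceptor: aattgtcttgtgttaAGgat
Hnrnpk intron 13 donor: atgGTaagtttcttcttttt
Hnrnpk intron 13 acceptor: ctcattatttaaatcAGact
Hnrnpl intron 11 donor: aaaGTgagtcagacaccact
Hnrnpl intron 11 acceptor: tctcctgtttgattcAGgcg

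Srsf3 (ENSMUSG00000071172, chr17:29032628-29043373, + strand) had the largest share typed as retained-intron, 49.7% and 52.2%, and its dominant transcript was Srsf3-205 at 474.77 and 551.30 TPM, ahead of the coding Srsf3-202 at 431.60 and 460.46 TPM. This type is uncertain: Srsf3-205 was quantified as a model of 910 nt and has 2110 nt in the annotation that gives its type. In a further step, only transcripts with an annotated length within 10% of the quantified one were kept, and shares were taken over these alone. The retained-intron share of Srsf3 was then 9.50%, from Srsf3-204, which held 4.16% and 4.37% of the gene's whole TPM. Srsf5 was then the only member with a dominant transcript that is not coding. With all transcripts kept, such genes were 2 of 27, Srsf3 and Srsf5, against 8.23% of the 6103 genes. The NMD transcript of Srsf3, Srsf3-201, with 8.91% and 7.88%, also changed its length between annotations.

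Srsf11 spread its retained-intron share of 33.4% and 32.7% over several transcripts, led by Srsf11-208 at 13.43% and 13.36%, while the coding Srsf11-202 was dominant at 51.15% and 53.12%. The others at 10% or more in both libraries were Srsf1 (14.6% and 13.4%), Hnrnph3 (13.2% and 11.7%) and Hnrnpu (12.2% and 12.5%). In Srsf1 this was mainly Srsf1-203, a 759 nt model with all its bases in coding transcripts' exons, at 13.18% and 10.93%. In Hnrnpu it was Hnrnpu-202, with 11.58% and 11.79%. Neither of these models, nor Srsf11-208, holds a whole intron of the gene's main coding transcript, unlike Hnrnph3-206, which keeps intron 4 (430 nt) and took 8.45% and 8.49%. Unspliced precursor RNA is not an entry of the quantified annotation, so its reads and those of retained introns cannot be told apart in these values.

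NMD transcripts held at least 10% of the TPM in both libraries in 2 of 27 members, Hnrnpd and Srsf6, against 7.54% of the 6103 genes, and 14 of the 27 have an annotated NMD transcript, against 29.1%. In Hnrnpd (ENSMUSG00000000568, chr5:99955935-99978938, - strand) the share was 29.7% and 29.2%, nearly all of it Hnrnpd-208 at 65.95 and 70.48 TPM, beside the dominant coding Hnrnpd-203 at 92.44 and 97.10 TPM. In Srsf6 (ENSMUSG00000016921, chr2:162931528-162937121, + strand) it was 22.8% and 21.2%, from Srsf6-201 at 50.51 and 50.72 TPM, beside the coding Srsf6-203 at 164.47 and 184.17 TPM. Shares of both genes were thus close between the pools. In the annotation, Srsf5-212, Srsf6-201 and Hnrnpd-208 have transcript support level 5, the weakest, and Hnrnpk-217 and Hnrnpl-210 have level 2.

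The NMD types rest on different structures. Of 22 NMD transcripts whose length is unchanged, 8 have their stop codon in an exon that the main coding transcript lacks, 6 use the stop codon of the main coding transcript with an exon junction downstream of it, and 8 reach another stop codon in exons that overlap those of the main coding transcript. Srsf6-201 is of the first kind, with its stop in exon 3 of 7, a 268 nt exon (chr2:162932815-162933082), 534 nt before the last exon junction. Hnrnpd-208 is of the second kind, with the normal stop codon 137 nt before the last junction, since it holds 107 nt of a further exon in the 3′ untranslated region, and so are Hnrnpdl-201 (126 nt) and Srsf2-204 (113 nt). The SR genes Srsf4 and Srsf11 and both L genes have exons of the first kind as well, but these transcripts were rare: Hnrnpll-203 took 5.28% and 5.43% of its gene, Srsf4-203 3.77% and 3.07%, Srsf11-206 4.66% and 3.75%, Srsf11-212 3.05% and 3.40%, and Hnrnpl-213 0.91% and 1.05%.

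The coding stretches of these exons are shown because each ends the reading frame, with the premature stop codon in capitals. They lie at chr2:162932815-162932966 (+) for Srsf6, chr17:80044976-80045022 (-) for Hnrnpll, chr7:28817335-28817393 (+) for Hnrnpl, chr4:131884276-131884390 (+) for Srsf4, and chr3:158024209-158024231 (-) and chr3:158023310-158023359 (-) for Srsf11. Their lengths differ, from 23 nt in Srsf11-206 to 152 nt in Srsf6-201, and the stop codon is TAG in Srsf6 and Srsf4 and TGA in the others.
Srsf6-201 exon 3: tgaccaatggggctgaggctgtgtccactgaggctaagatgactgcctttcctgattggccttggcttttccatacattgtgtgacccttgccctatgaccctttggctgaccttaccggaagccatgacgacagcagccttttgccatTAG
Srsf4-203 exon 2: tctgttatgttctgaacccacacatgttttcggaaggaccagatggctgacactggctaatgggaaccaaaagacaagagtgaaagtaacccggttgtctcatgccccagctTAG
Hnrnpll-203 exon 7: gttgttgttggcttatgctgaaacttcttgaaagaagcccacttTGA
Hnrnpl-213 exon 6: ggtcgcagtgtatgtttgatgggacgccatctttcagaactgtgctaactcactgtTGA
Srsf11-206 exon 4: ttcttttccctggttcagccTGA
Srsf11-212 exon 3: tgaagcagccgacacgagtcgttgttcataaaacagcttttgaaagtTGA

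**Figure D4:**
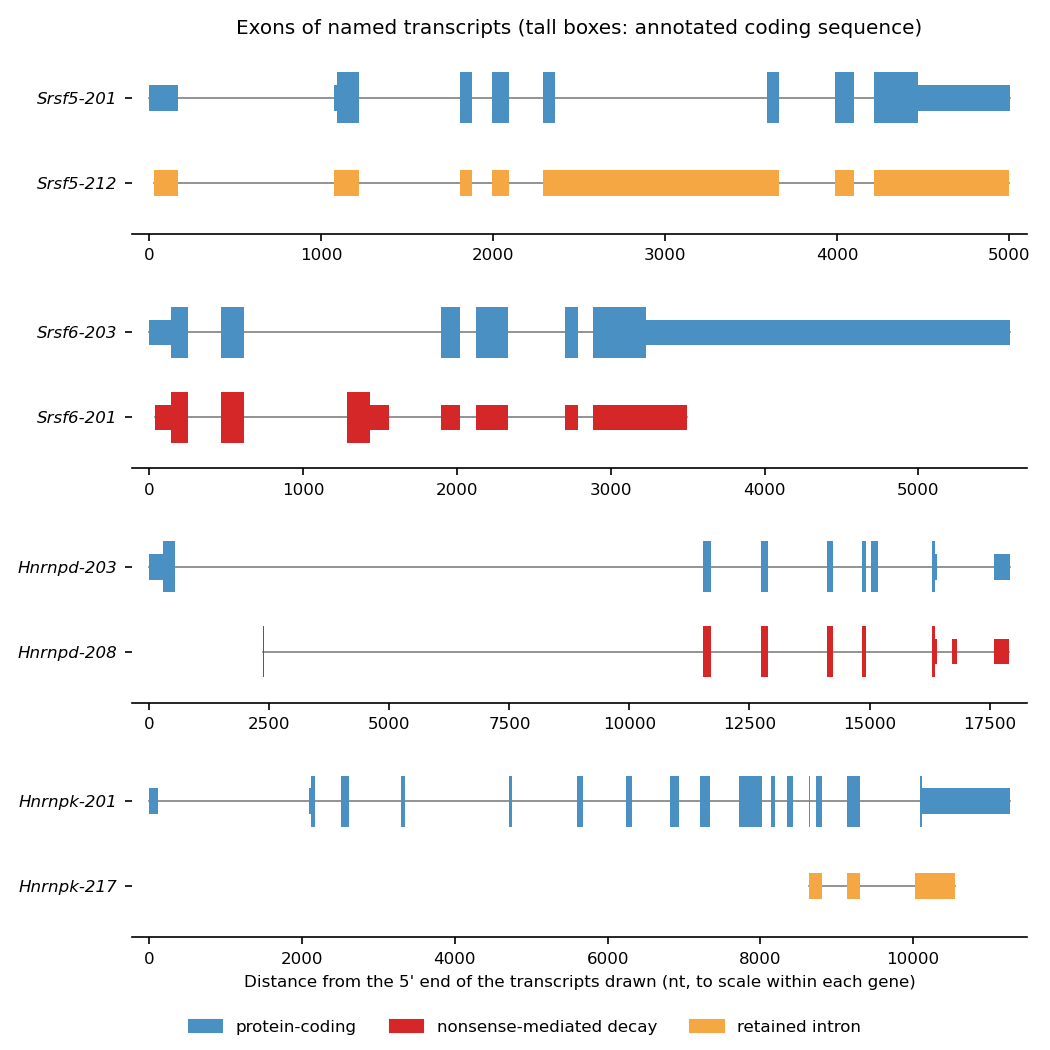
Exons of the named transcripts of Srsf5, Srsf6, Hnrnpd and Hnrnpk as boxes, with introns as lines, against the distance in nt from the 5′ end of the transcripts drawn (x), and tall boxes for annotated coding sequence. Srsf5-212 joins the exons around intron 5 into a single box, Srsf6-201 ends its coding sequence in an exon that Srsf6-203 lacks, Hnrnpd-208 has an added exon after its stop, and Hnrnpk-217 covers only the 3′ part of its gene.

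Srsf2 (ENSMUSG00000034120, chr11:116849901-116853094, - strand) showed the largest difference between the libraries in any NMD share. Its NMD share was 16.0% in library 1 and 9.56% in library 2, and the coding Srsf2-201 took 79.0% and 85.5%. Srsf2-204 received 1357.29 expected counts in library 1 and 895.78 in library 2, a TMM-scaled ratio of 0.660 (95% interval 0.606 to 0.719), while Srsf2-201 had a ratio of 1.196 (1.175 to 1.217). These intervals cover counting error only. Srsf2-204 is a 620 nt model of 3 exons that overlaps the coding models, and the posterior SD of its count was 5.18% in library 1 and 8.17% in library 2. Besides Srsf3, the remaining genes with an NMD share above 5% were Hnrnpr (12.7% and 9.53%, from Hnrnpr-206), Srsf1 (9.91% and 9.17%), Hnrnph3 (9.53% and 8.57%), Hnrnpdl (9.50% and 10.4%), Srsf11 (8.38% and 7.54%), Srsf4 (6.30% and 6.31%) and Hnrnpll (5.28% and 5.43%).

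Processed transcripts, which have no assigned reading frame, held at least 10% in both libraries in 3 of 27 members, against 11.9% of the 6103 genes, and 7 of the 27 have an annotated one, against 48.8%. Hnrnph1 had the largest share, 53.4% and 53.8%, spread over many models with Hnrnph1-212 in front at 24.11% and 24.24%. By expected counts the processed Hnrnph1-205 had more, 5342.37 and 6502.7, against 2184.29 and 2319.74 for Hnrnph1-212. The dominant coding transcript of the gene, Hnrnph1-201, took 32.34% and 33.85% of its TPM. Srsf10 had 34.6% and 35.8%, beside 34.65% and 33.77% for the coding Srsf10-204, and Hnrnpdl had 13.7% and 12.9%, beside 38.12% and 36.62% for the coding Hnrnpdl-202.

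These shares are per length, and many alternative models are short, so a small number of reads can give a large share. The median length was 833 nt for the members' retained-intron transcripts and 940 nt for their NMD transcripts, against 2144.5 nt for the coding ones. By expected counts, retained-intron transcripts held 7.46% of the summed counts of the 31 genes (3.34% over the 6103 genes) and NMD transcripts 2.10% (2.22%). The retained-intron share by counts was higher than by TPM in Srsf5 (57.5%), whose intron-keeping transcript is longer than the coding ones. It was lower in Srsf3 (32.0%), Srsf11 (29.4%), Hnrnpl (15.6%) and Hnrnpk (14.7%), and 5 of 27 members then reached 10% in both libraries, against 10.6% of the 6103 genes. Srsf6 and Srsf2 fell to NMD shares of 11.5% and 4.17%, and Hnrnpd to 23.6%. Processed shares fell to 8.09% in Srsf10 and to 44.1% in Hnrnph1.

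**Figure D5:**
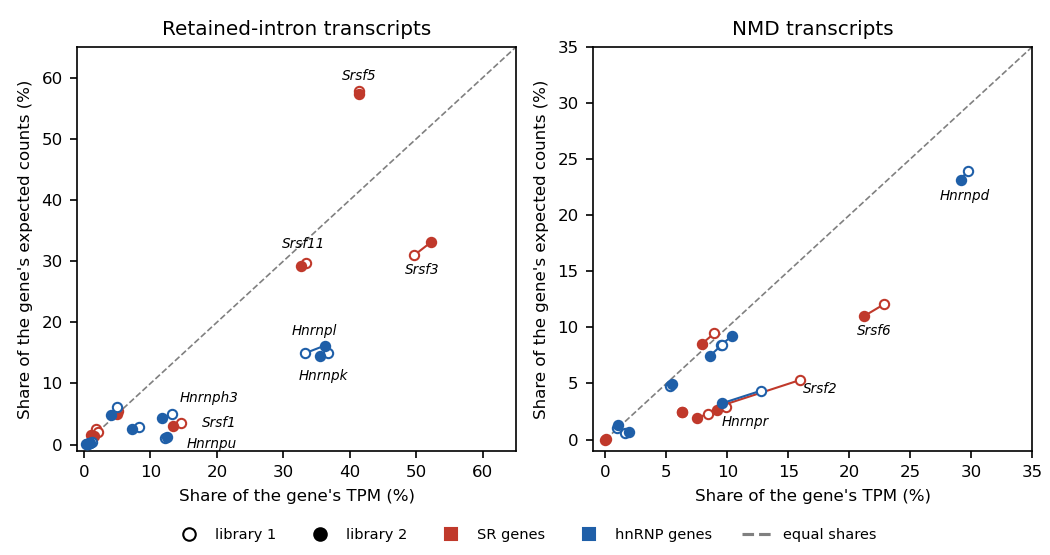
Share of a gene's expected counts (y, percent) against share of its TPM (x, percent) for retained-intron transcripts (left) and NMD transcripts (right), with open points for library 1 and filled points for library 2 joined by a line and a dashed line of equal shares. Srsf5 lies above the dashed line at 57.5% of counts, Hnrnpk and Hnrnpl lie far below it near 15%, and the Srsf2 points are the farthest apart in the right panel.

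Transcripts also differed by whole coding exons, and exons of Hnrnpab, Hnrnpd, Hnrnpk, Hnrnph3 and Srsf1 are described here from transcripts of unchanged or nearly unchanged length. Transcripts that join the exon to its neighbours on both sides count as including it. Those that join the neighbours directly count as skipping it. Inclusion is the TPM of including transcripts as a percent of the TPM of both kinds. Hnrnpab (chr11:51600100-51606847, - strand) included a 141 nt exon of 47 codons (chr11:51601750-51601890) at 48.3% and 48.8%, which splits its TPM between Hnrnpab-203 with the exon and the dominant Hnrnpab-201 without it. Hnrnpd included a 147 nt exon of 49 codons (chr5:99963731-99963877) at 51.9% and 49.4%, and an early 57 nt exon of 19 codons (chr5:99976534-99976590) at 36.1% and 37.5%. Hnrnpd-208, with 28.67% and 28.45% of the gene's TPM, begins within the 57 nt exon and is left out of its inclusion, which rests on 63.4% and 62.7% of the gene's TPM. Hnrnpk included a 72 nt exon of 24 codons (chr13:58396188-58396259) at 78.0% and 78.6%.

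Near-even inclusion in Hnrnpab and for the longer Hnrnpd exon was found in both pools. For that Hnrnpd exon, the skipping transcripts include the NMD transcript Hnrnpd-208, at 28.67% and 28.45% of the gene's TPM. The split in Hnrnpd is therefore not one between coding transcripts alone. Both Hnrnpd exons and those of Hnrnpab and Hnrnpk keep the reading frame. By counts in place of TPM, inclusion was 35.5% and 36.0% in Hnrnpab and 58.0% and 54.3% for the longer Hnrnpd exon. It was 25.5% and 31.2% for the shorter Hnrnpd exon and 83.8% and 84.1% in Hnrnpk. The transcripts compared held 98.5% and 98.1% of the TPM of Hnrnpab, 78.7% and 80.7% of that of Hnrnpd for the longer exon, and 63.5% and 64.9% of that of Hnrnpk. The exons of Hnrnph3 and Srsf1 shift the frame: a 139 nt exon of Hnrnph3 (chr10:63018760-63018898) at 79.7% and 81.2%, whose absence is found in the NMD transcript Hnrnph3-204 among others, and a 187 nt exon of Srsf1 (chr11:88049412-88049598), whose absence is found in the NMD transcript Srsf1-204. The inclusion of 43.3% and 37.7% for the Srsf1 exon rests on transcripts with 17.3% and 14.7% of the gene's TPM, and that of Hnrnph3 on 86.8% and 88.3%. For Srsf1 only Srsf1-202, with the exon, and Srsf1-204, without it, are compared. The coding Srsf1-201 (47.80% and 50.65%) and Srsf1-205 (20.18% and 21.23%) are counted on neither side, so this inclusion does not describe most of the gene's RNA. By counts, inclusion was 51.6% and 45.8% for Srsf1 and 88.3% and 89.4% for Hnrnph3. The 4 frame-keeping exons of Hnrnpab, Hnrnpd and Hnrnpk are shown in full and in lower case, since each adds an uninterrupted coding stretch.
Hnrnpab exon of 47 codons: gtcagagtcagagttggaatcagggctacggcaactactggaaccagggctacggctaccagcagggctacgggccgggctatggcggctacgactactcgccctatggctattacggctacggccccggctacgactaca
Hnrnpd exon of 49 codons: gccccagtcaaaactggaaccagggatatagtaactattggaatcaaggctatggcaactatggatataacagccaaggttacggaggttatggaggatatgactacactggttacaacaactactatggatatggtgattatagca
Hnrnpd exon of 19 codons: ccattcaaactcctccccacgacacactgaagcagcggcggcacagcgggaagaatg
Hnrnpk exon of 24 codons: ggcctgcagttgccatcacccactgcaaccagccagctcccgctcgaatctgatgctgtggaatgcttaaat

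The dominant transcript was the same in both libraries in 30 of the 31 genes. The exception, Hnrnpa3, is 1 of 27 members against 6.29% of the 6103 genes. Its coding Hnrnpa3-204 led in library 1 with 40.88% against 36.78% for the coding Hnrnpa3-202, and the order turned in library 2, with 32.55% against 44.10%. The TMM-scaled ratio was 0.854 (95% interval 0.812 to 0.898) for Hnrnpa3-204 and 1.286 (1.227 to 1.349) for Hnrnpa3-202, in the gene with the largest posterior SD of the 31.

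Coding transcripts with most of the gene's TPM were dominant in Srsf9 (Srsf9-201, 96.27% and 97.31%), Srsf4 (Srsf4-202, 91.92% and 92.59%), Hnrnpll (Hnrnpll-205, 85.79% and 88.48%), Hnrnpc (Hnrnpc-201, 97.75% and 98.87%) and Hnrnpul1 (Hnrnpul1-201, 99.78% and 100%). Srsf7-201, Hnrnpa0-201 and Hnrnpul2-201 are the only quantified transcripts of their genes. In Srsf1 (Srsf1-201, 47.80% and 50.65%), Srsf12 (Srsf12-201, 57.23% and 59.07%), Hnrnpu (Hnrnpu-201, 79.41% and 76.77%) and Hnrnph3 (Hnrnph3-201, 55.71% and 51.52%) the leading transcript shared the gene with others. In Hnrnpa1 the coding Hnrnpa1-202 took 87.04% and 87.76%. The leading transcript also shared the gene with others in Hnrnpa2b1 (Hnrnpa2b1-203, 45.78% and 47.90%), Hnrnpf (Hnrnpf-201, 39.55% and 42.61%), Hnrnpr (Hnrnpr-202, 41.63% and 40.63%), Hnrnpm (Hnrnpm-201, 54.47% and 51.97%) and Hnrnph2 (Hnrnph2-203, 62.90% and 65.09%). Hnrnpa2b1-203 was quantified as 4086 nt and has 1728 nt in the later annotation, so its share depends on a model that has since changed.

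Genes that act with these families were summarised from lists. All 12 SR-related proteins and SR kinases (such as Tra2b and Clk1) were detected, with a median of 97.6 TPM, and 5 of them had a retained-intron share and 3 an NMD share of at least 10% in both libraries. Such shares were found in 17.0% and 7.54% of the 6103 genes, which unlike the lists are limited to 2 or more transcripts and 10 TPM. The 16 factors of the decay pathway and the exon junction complex (such as Upf1) were all detected, with a median of 30.0 TPM. Of these, 2 had a retained-intron share and 1 an NMD share of at least 10%. A further 14 RNA-binding proteins, hnRNPs under other symbols or relatives of them (such as Ptbp1), were detected with a median of 125.3 TPM, and 1 of them had a retained-intron share and 2 an NMD share of at least 10%. The ratio of library 2 to library 1 was above 1 in 10 of the 12, 11 of the 14 and 9 of the 16 genes, with medians of 1.031, 1.091 and 1.01. It was above 1 in 55.1% of the 8407 genes at 10 TPM, so the 16 factors were near that share.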

How the data were processed

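Total RNA of both pools had been quantified by the authors with the models of GENCODE M4 and assembly mm10, per the deposited notes, and the columns are named as in RSEM. Aligner, software versions and strandedness are not given in the sources used here. The deposited expected counts are reads assigned by the authors to each gene or transcript without normalization. TPM was computed by the authors from expected counts and effective lengths over all entries, spike-ins included. The isoform percentage, in percent, is the deposited share of a gene's TPM held by a transcript.

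Symbols, transcript types, positions and sequences came from GENCODE M21 by identifier without version. Shares were summed by type. Ratios used TMM (edgeR 4.0.16, R 4.3.3) with exact 95% Clopper-Pearson intervals, which reflect counting error alone, as reads lack molecular identifiers and need not be independent molecules. A limit of 3 counts is 0.162 and 0.160 TPM for a 1 kb transcript. Tables were handled in Python 3.11.15 with pandas 2.3.3, and the ratio and share steps were tested on simulated data. Genes were named by rule: all members, their dominant transcripts, and NMD or retained-intron transcripts of at least 10% in both libraries, with others added after their values were seen. The members and lists were chosen with earlier results of these data known. Alternatives changed the detection threshold, scaling, share measure, filters and fold. Proteins are not shown, and 1 exon and 1 gene of a list are not reported here.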

Additional observations from a re-analysis of the deposited data

How the results depend on the processing

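With TPM rescaled to mouse genes alone, the median level was 305.3 TPM (257.73 as reported). By expected counts, the median coding share was 96.1%, the median retained-intron share 0.125%, members with a non-coding dominant transcript 1, and members with a retained-intron share of 10% in both libraries 5 of 27 (10.6% of the 6103 genes). Among members at 10 TPM or more, the median coding share was 88.5% and the median retained-intron share 0.880% (0.53% over all 31). Among members with an annotated transcript of the type, the median was 8.72% for NMD (0 over all 31) and 7.77% for retained introns. A fold of 1.5 was passed by 0 members, and the lower fold tried by 1. Members with an NMD share of 10% were 2 in both libraries, and from 3 to 4 when either library was left out. Chosen after seeing the data, keeping only transcripts within 10% of the quantified length left 1 member with a non-coding dominant transcript. Also chosen then, leaving out Srsf3, or Srsf3 and Hnrnpk, brought the retained-intron share of the summed TPM from 14.1% to 10.5% and 4.88%. Single shares moved by more than the spread between libraries in 10 of 10 cases by counts. The cause was not tested for any of these changes. No paired analysis was possible because there is a single group. With 2 libraries, depth limits little at these levels, and the spread itself is poorly known.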
